A study of Drosophila melanogaster with 4 samples.

Results

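Ilp4 and slp1 are fly genes best known from the embryo, and their transcripts were read in whole bodies of 10-day-old adult w1118 flies. The arrays name each probe by a transcript identifier, and a probe was taken as a member where that identifier, without its version, is a RefSeq transcript of either gene. This gave 3 probes of 32162, namely A_09_P056701 and A_09_P128175 for Ilp4 (NM_140104) and A_09_P044771 for slp1 (NM_057382). The genes were chosen by their signal on these same arrays, above all its ratio between HN and control females, so that their levels are a description and carry no test.

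The 4 groups were HN females, control females, HN males and control males, all of the w1118 strain, which the labels call wild type. HN flies had developed from egg to eclosion under hyperbaric normoxia, a pressure of 2 atmospheres absolute in normoxic conditions, and were then kept as adults in an ordinary incubator, as the controls were throughout. Whole-body RNA pooled from flies of each group was read on 1 one-color Agilent array per group. No difference between groups therefore has a replicate check. Whether the females had mated is not given in the sources used here.

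Ilp4 encodes an insulin-like peptide, a secreted ligand of the insulin receptor. In the fly embryo it is transcribed in the mesoderm and the midgut, while other members of the family are made by brain neurosecretory cells or the fat body of larvae and adults. The slp1 gene encodes a forkhead-domain transcription factor of the segmentation cascade, which sets up stripes in the early embryo and is used again later in the developing nervous system. A fertilized egg begins with RNA that the mother deposited, and its own segmentation genes are transcribed only after the first nuclear divisions. Females normally lay soon after fertilization but can hold eggs in the uterus, so embryonic RNA in a female body is possible in principle.

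Ilp4 had a mid-range signal on the control female array and lay near background on the other 3. Over the 2 spots of probe A_09_P056701, the deposited intensity was 22.6 and 18.7 in HN females, against 275 and 279 in control females. The single spot of probe A_09_P128175 read 15.6 in HN females and 249 in control females. Both probes thus placed Ilp4 in the control females at a level that the HN females did not approach. In males the same spots of A_09_P056701 read 8.48 and 12.2 under HN and 10.1 and 10.7 in controls. Probe A_09_P128175 read 12.6 in HN males and 6.89 in control males. The male values overlapped between treatments and lay below every female value.

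The scanner software marks each spot as well above background or not. For Ilp4 this flag was set on 1 of 3 spots in HN females and 3 of 3 in control females, and on 0 of 3 spots on each male array. A weaker flag, that the signal is positive and significant against background, was set on 3 of 3 Ilp4 spots in HN females, control females and HN males, and on 2 of 3 in control males. Among the 153 negative-control spots of each array, the 95th percentile was 5.98 for HN females, 7.50 for control females, 5.51 for HN males and 8.57 for control males. The 3 Ilp4 spots of the HN female array were all above that level but below the brightest negative-control spot, which read 24.6. No spot of either gene was saturated or carried an outlier flag.

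The slp1 probe gave another picture, since it was well above background on both of its spots on all 4 arrays. It read 116 and 115 in HN females, against 294 and 301 in control females. In males it read 322 and 326 under HN and 267 and 291 in controls. Repeat spots differed by at most 1.09-fold on any array, so that the lower level in HN females stood clear of the spread between spots. Its transcript was thus measured in both sexes and under both treatments.

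**Figure D1:**
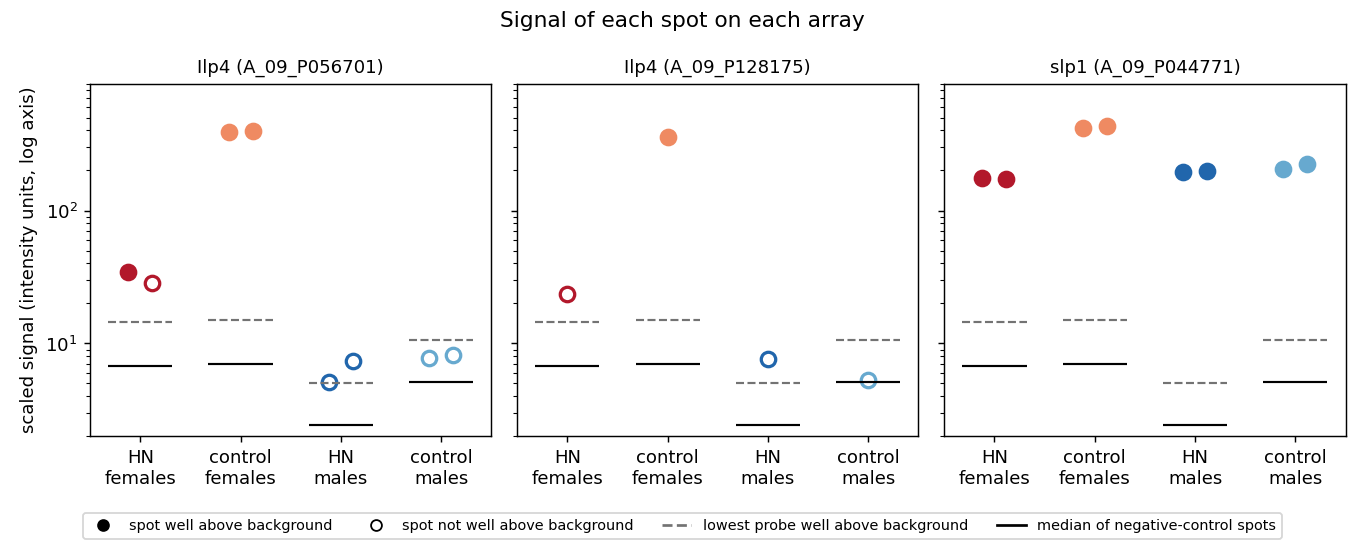
Scaled signal (intensity units, log axis) of each spot of the 3 probes on the HN female, control female, HN male and control male arrays, with filled points for spots well above background and open points for the others. Dashed lines mark the lowest probe well above background and solid lines the median of the negative-control spots. Ilp4 reaches 355 to 397 in control females alone, while slp1 is above background on all 4 arrays.

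To compare arrays, each was brought to a common level by its 50th percentile over all probes. In these scaled intensity units Ilp4 averaged 31.2 in HN females and 394 in control females on A_09_P056701. On A_09_P128175 it read 23.7 in HN females and 355 in control females. The probes stood at 6.14 and 7.59 in HN males, and at 7.97 and 5.29 in control males, all without a flag for a signal well above background. The scaled signal of slp1 was 175 in HN females, 424 in control females, 195 in HN males and 214 in control males. Expressed as a rank within each array, which no scaling between arrays can change, the probe A_09_P056701 was brighter than 31.3% of probes in HN females, 53.1% in control females, 16.0% in HN males and 18.3% in control males. The slp1 probe was brighter than 46.3% of probes in HN females, 53.8% in control females, 46.3% in HN males and 47.2% in control males. By rank, then, slp1 in control females stood apart from 3 arrays that were alike. By mean deposited intensity HN females stood apart instead, at 115 against 298 in control females, 324 in HN males and 279 in control males. A rank near the middle of all probes follows the 50th percentile, so it is no separate check on that scaling between the sexes.

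In females, the comparison that the study made between HN and control flies gave a log2 ratio for Ilp4 of -3.66 on A_09_P056701, a 12.6-fold lower signal in HN females. Its separate spots gave -3.52 and -3.80. On A_09_P128175, which was not well above background in HN females, the signal as measured was 15.0-fold lower there, a log2 ratio of -3.90. This value is not a lower limit to the change. The slp1 probe had a log2 ratio of -1.28, or 2.43-fold lower in HN females, with -1.25 and -1.30 from its separate spots. When probes with repeat spots were split by signal into 5 groups, the dimmest, whose range of signal holds these members, had a standard deviation of 0.191 between the log2 ratios of repeat spots in females, over 1457 probes. All of these ratios were several times that error, which covers repeat spots of 1 array per group and says nothing of how other flies would vary. It was taken only from spots well above background on both arrays. In HN females 1 of 3 Ilp4 spots was so, and the error does not cover the others. The software gave an error of 4.79 on the intensity of 15.6 that A_09_P128175 had there.

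All 3 probes were lower in HN females beyond 1.5-fold, the limit in the study's methods, as were 3.14% of the 22546 probes compared in females. The members were chosen with this contrast known, and nothing is read from that count. Probe A_09_P128175 was 1 of 22 probes with a ratio as low as its own or lower, and A_09_P056701 1 of 34. For slp1 there were 304 such probes, or 1.35% of those compared. The value of A_09_P128175 rests on a signal not well above background in HN females, and all of these ranks describe genes chosen by this ratio. Normexp, a model-based background correction, was run on the median spot signal with an offset of 50 added to every corrected signal. Under it the Ilp4 ratio was -1.96 and -1.83 on the 2 probes, and slp1 had -0.98. Such an offset shrinks ratios of dim probes, but its part in these values was not tested. In whole-body RNA, fewer cells of a type and less RNA per cell cannot be told apart.

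**Figure D2:**
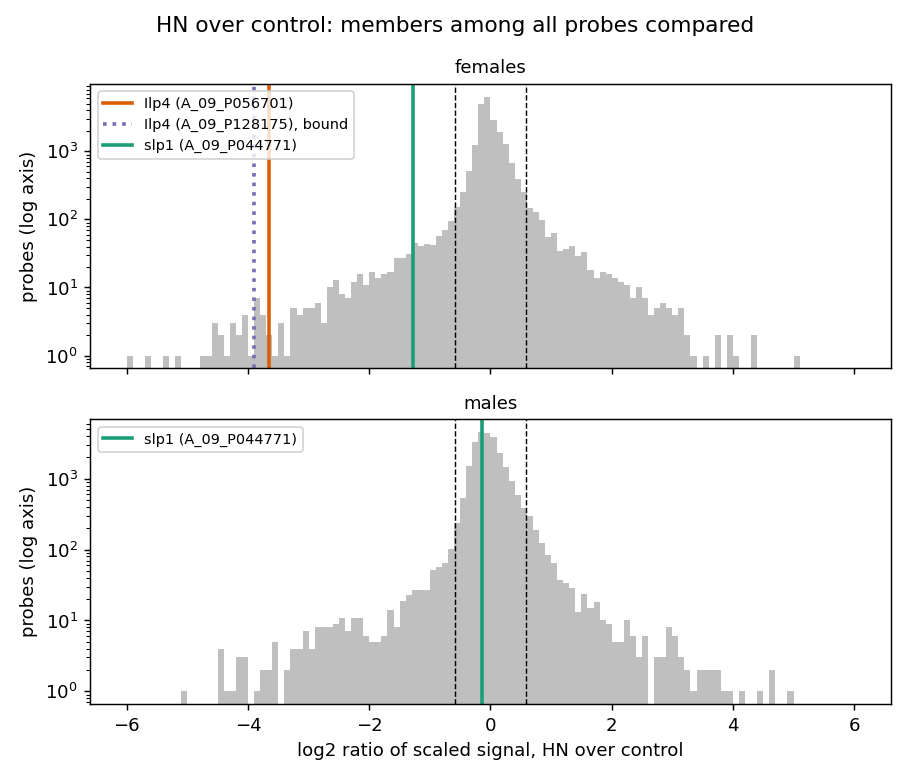
Histograms (log axis) of the log2 ratio of scaled signal, HN over control, for all probes compared in females (upper panel) and males (lower panel), with vertical lines at the members and dashed lines at 1.5-fold. Member lines are dotted, and named a bound, where 1 side was not well above background. In females the Ilp4 probes lie at -3.66 and -3.90 and slp1 at -1.28, while in males slp1 lies at -0.13 and Ilp4 has no ratio. The -3.90 is named a bound in the plot but is the ratio as measured.

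In males no fold was computed for Ilp4, since neither array had a spot well above background. The slp1 probe had a log2 ratio of -0.13 for HN over control males, inside the repeat-spot standard deviation of 0.174, with -0.08 and -0.18 from its separate spots. It therefore did not pass the 1.5-fold limit, beyond which 2.24% of the 25586 probes compared in males were lower in HN flies. Without scaling between arrays the sign turned, to 0.22. The log2 ratio of slp1 in females minus that in males was -1.15. With 1 array per group this difference was not tested. The control male array was read in a second scan and the other 3 in a first. Scan therefore cannot be told apart from treatment in males or from sex in control flies, and it enters the difference of -1.15. Both female arrays shared a scan. All 4 arrays lay on 1 slide.

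The comparison of females with males placed Ilp4 on the female side in both treatments. In control flies it was at least 37.4-fold higher in females than in males on A_09_P056701 and at least 33.6-fold on A_09_P128175, where the dim side was taken as the lowest signal of a probe well above background. In HN flies only A_09_P056701 could be compared. Against the male signal as measured it was 5.09-fold higher in females, a log2 ratio of 2.35. These folds rest on the scaling. In HN flies the log2 ratio was 0.75 with the 75th percentile, and 0.58 when only probes that every array flagged well above background set the level, which is short of 1.5-fold. After scaling to the 50th percentile, 60.9% of the 25188 probes compared in control flies and 58.4% of the 26288 compared in HN flies were more than 1.5-fold higher in females, so that being higher in females was common. The median log2 ratio of female over male was 1.44 in HN flies and 1.48 in control flies over the 19758 probes that every array flagged well above background, but -0.16 and -0.13 when the 75th percentile was used. Counts of probes higher and lower in HN females than in HN males were 15348 and 4447 with the 50th percentile, and 8081 and 12879 with the 75th. In control flies they were 15343 and 4816, against 8045 and 11620.

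Relative to that median, the log2 ratio of Ilp4 in control flies was at least 3.74 on A_09_P056701 and at least 3.59 on A_09_P128175. Over 8 other settings of scaling, background and spot filter this bound ranged between 1.51 and 4.52 on A_09_P056701 and between 1.43 and 4.40 on A_09_P128175. In HN flies the log2 ratio relative to the median was 0.91 on A_09_P056701 and ranged between 0.20 and 1.70. Since Ilp4 was not well above background in males, these values give no upper limit to the sex difference in either treatment.

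The sex difference of slp1 had no settled direction. The scaled signal was 1.98-fold higher in females in control flies, a log2 ratio of 0.99, but the ratio was -0.62 with the 75th percentile and -0.80 when only the 19758 probes named above set the level. In HN flies the log2 ratio was -0.16, inside the repeat-spot standard deviation of 0.199, and -1.76 with the 75th percentile. Set against the median of the same 19758 probes, slp1 was lower in females by a log2 ratio of -0.49 in control flies and -1.60 in HN flies, although under quantile normalization the control value turned to 0.30. In every setting run, the slp1 ratio of female over male was lower in HN flies than in control flies. By arithmetic this gap is the HN over control ratio of females minus that of males. The genes were chosen above all by the female ratio, so nothing is read from this agreement.

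**Figure D3:**
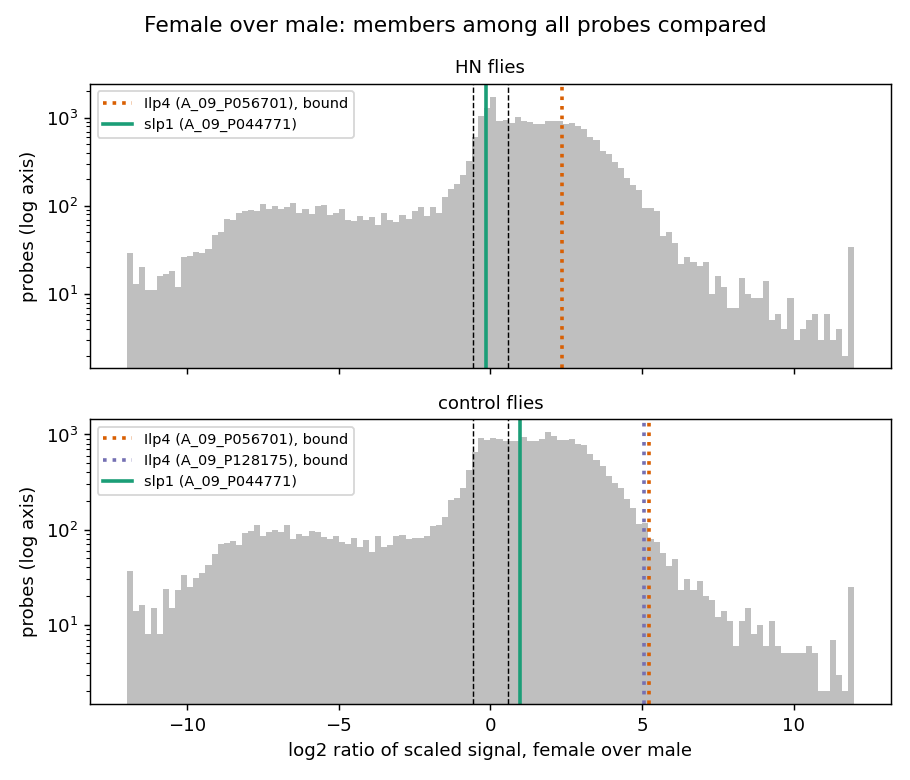
Histograms (log axis) of the log2 ratio of scaled signal, female over male, for all probes compared in HN flies (upper panel) and control flies (lower panel), with ratios beyond 12 in size gathered in the end bins and dashed lines at 1.5-fold. Member lines are dotted, and named a bound, where 1 side was not well above background. Ilp4 lies at 2.35 in HN flies and at 5.22 and 5.07 in control flies, and slp1 at -0.16 and 0.99, within a distribution whose bulk is on the female side. The 2.35 is named a bound in the plot but is the ratio as measured.

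Other transcripts that mark embryos, eggs or the ovary were looked up to describe the bodies in which Ilp4 was found. Few could be named, because 412 of the 32162 probes carry an identifier that leads to a gene symbol. Of 55 genes of zygotic embryonic patterning, 3 had such a probe, or 5.45%, under the 80% at which a list can be checked as a whole. Among them bnk, which is transcribed for a short time when the embryo forms cells, was not well above background on any array, with scaled signals of 7.84 in HN females and 8.52 in control females. The head and mesoderm gene croc, also of the forkhead family, was at 6.36 in HN females and 6.61 in control females and likewise not well above background. The head gap gene btd was above background on all 4 arrays, at 70.4 in HN females, 110 in control females, 35.3 in HN males and 36.0 in control males. Its log2 ratio in females was -0.65 from 1 spot, just past 1.5-fold, and it fell short of that limit with the 75th percentile (-0.58) and under normexp (-0.34). Zygotic genes with a name thus gave 1 transcript below its control level in HN females and 2 that were not well above background.

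Of 38 maternal germline genes and 26 eggshell and yolk genes, 1 each had a named probe, too few to describe the ovary or the unfertilized egg. The probe of tor, the receptor of terminal patterning whose RNA the mother loads into the egg, read 4478 in HN females and 4852 in control females, a log2 ratio of -0.12. Vm34Ca, a vitelline membrane protein made by follicle cells, read 29200 in HN females and 27253 in control females, a log2 ratio of 0.10. In males tor was at 70.8 under HN and 70.9 in controls, and Vm34Ca was not well above background. Both genes stood within 1.5-fold between HN and control females under every alternative run. Both Ilp4 probes were more than 1.5-fold lower in HN females under each of them, but Ilp4 was chosen by this ratio. Nothing about the source of the Ilp4 signal is read from the contrast.

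Among genes of the late embryo and larva, 2 of 28 had a named probe. The cuticle gene Cpr49Ag was at 4930 in HN females and 4238 in control females. Cpr97Eb, another cuticle gene, was at 711 in HN females and 278 in control females, the opposite direction to Ilp4, and at 790 in HN males and 235 in control males. Of 29 genes of testis and male accessory gland, Dup99B, a peptide of the ejaculatory duct, was at 5053 in HN males and 5111 in control males. Its 1 spot was well above background in HN females at 30.2, while in control females it was not, at 6.06. The testis gene soti was not well above background on any array. Whether embryos or fertilized eggs held in the body gave the Ilp4 and slp1 signal of the control females was not tested.

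**Figure D4:**
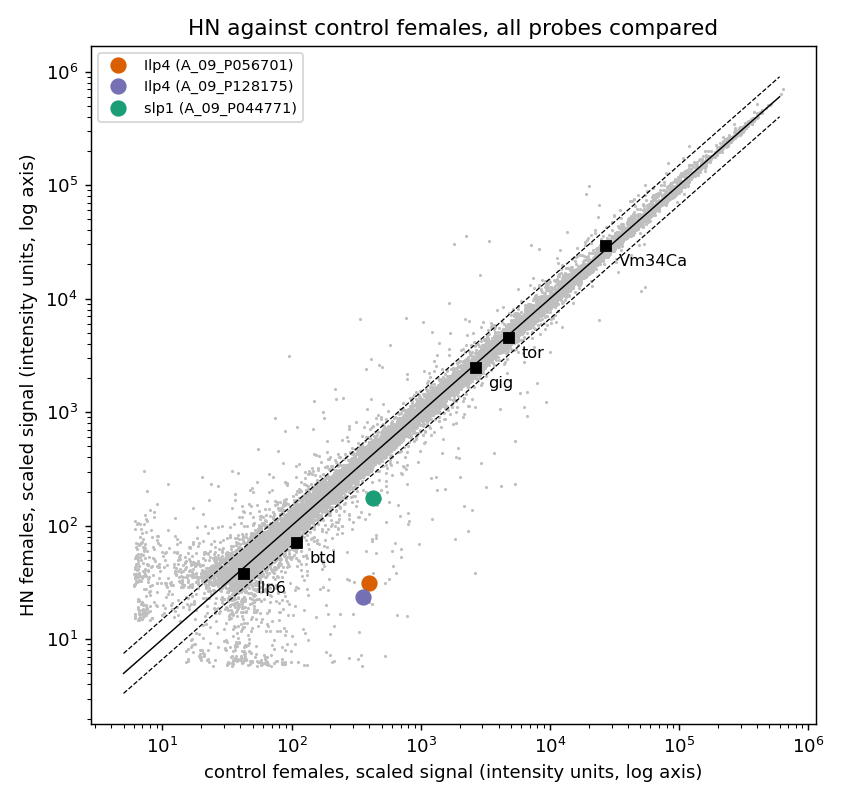
Scaled signal (intensity units, log axes) of HN females against control females for all probes compared in females, with the line of equal signal and dashed lines at 1.5-fold. Vm34Ca, tor, gig and Ilp6 lie near the line of equal signal, btd lies at the 1.5-fold line, and slp1 and the Ilp4 probes lie below it.

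Within the insulin pathway, 2 of the 28 other genes listed had a named probe. Ilp6, an insulin-like peptide of the fat body, was at 37.9 in HN females and 42.8 in control females, with 1 of 2 spots well above background on each female array and none on either male array. Its log2 ratio in females was -0.18, inside the repeat-spot error. The tumor suppressor gig, a brake on growth signalling downstream of the insulin receptor, was at 2439 in HN females and 2669 in control females, and at 470 in HN males and 497 in control males. Neither passed the 1.5-fold limit between HN and control flies, and neither had the pattern of Ilp4 over the 4 arrays. Of 21 forkhead genes, croc alone had a named probe.

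Likeness of pattern was measured as the root mean square difference of log2 signal over the 4 arrays, each probe centred on its own mean. The Ilp4 probes lay 0.34 apart from each other. The nearest named genes to A_09_P056701 were asRNA:CR42871, Uhg2, Uhg5, CG17801 and CG2685, at 1.22 to 1.26. Those nearest to A_09_P128175 were asRNA:CR42871, Apc2, Uhg2, Uhg5 and CG17801, at 1.32 to 1.35. All 6 were brighter in females but held much of their signal in HN females, as asRNA:CR42871 did at 147 there against 173 in control females. Probes nearer than these numbered 250 for A_09_P056701 and 327 for A_09_P128175, and 4 and 2 of them lay within 0.3. The nearest named genes to slp1 were asRNA:CR43454 (0.26), mir-125 (0.28), nwk (0.30), Pgm2a (0.35) and lncRNA:alphagamma-element:CR32865 (0.35). The first 2 of these were not well above background in females. A pattern over 4 arrays is a thin basis, and it says nothing of shared control.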

How the data were processed

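RNA of 4 pools of whole flies, 1 per sex and treatment, was read on one-color Agilent arrays, and groups were taken from the sample titles. The authors deposited the intensity of every spot as Feature Extraction gave it (version 11.5.1.1 per the file headers), subtracted for background and not scaled between arrays. Detection flags came with it as other values of 0 or 1 in the deposited files. They also deposited a table of 1 intensity per probe, and 98.98% to 99.3% of its entries for an array matched the mean over spots to 0.1%. The entry of A_09_P056701 in HN females did not match. It was 22.6, the value of 1 spot, where its spots read 22.6 and 18.7. With the deposited table the log2 ratio of this probe in females was -3.52. The medians of that table were 180 in HN females, 192 in control females, 453 in HN males and 356 in control males, so that it is linear and uncentred.

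Spots flagged as outliers (44 to 92 per array) were left out, log2 values of repeat spots were averaged, and arrays were scaled to their 50th percentile, as in the methods. Signals under 5 were set to 5 after scaling. A probe counted as well above background where at least 50% of its spots did, which held for 67.7% to 79.1% of probes per array. Where this held on 1 array only, the dim side was set to the lowest signal of any probe that passed there, or to its own signal if that was higher. The ratio is a bound in the first case and the ratio as measured in the second. The number of arrays limits precision.

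Gene symbols came from a RefSeq table of the Release 6 assembly, 393 probes by transcript and 19 by synonym. The array design rests on an earlier assembly, so coordinates are not given, and probe sequences were not used here. Members and gene lists were chosen with earlier results of these data known. Named genes are the members, the 5 nearest genes to each member probe and every listed gene with a named probe. The calls were checked on simulated data, with changes placed only in probes well above background on all 4 arrays. That check does not cover Ilp4. Normexp used the median spot signal with limma 3.58.1 in R 4.3.3, since the files used here hold no mean signal. Python 3.11.15 and pandas 2.3.3 were used for the rest. Alternatives were other scalings, background correction, spot filters, averaging, the dim side, the limit and the deposited table.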

Additional observations from a re-analysis of the deposited data

Results flagged for a closer look

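The log2 ratio of female over male for slp1 had opposite signs in the treatments, -0.16 in HN flies and 0.99 in control flies. The difference was not tested, since each group has 1 array, and the control ratio turned negative under other scalings. The difference also contains the HN over control ratio of females, by which the genes were chosen.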

How the results depend on the processing

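With 1 array per group no replicate could be left out. No paired analysis was possible because each group has 1 array. The error used for judging shifts is the repeat-spot standard deviation of dim probes, from spots well above background on both arrays. The ratios of HN over control females kept their sign and stayed beyond 1.5-fold for all 3 member probes under the 10 alternatives run for each. They moved by more than that error under normexp (-1.96 and -1.83 for Ilp4, -0.98 for slp1), under quantile normalization for A_09_P056701 (-3.42) and with the deposited table for A_09_P128175 (-3.61). In males, slp1 moved to 0.22 without scaling. Female over male in HN flies, Ilp4 on A_09_P056701 was 0.75 with the 75th percentile, 0.58, short of 1.5-fold, with the 50th percentile over probes that passed on every array, 1.02 without scaling, 1.34 under normexp and 1.84 with the deposited table. The slp1 ratio there was -1.76, -1.93 and -1.49 under the first 3 of these. In control flies and in the same order of settings, A_09_P056701 was at 3.62, 3.43, 4.33, 2.71 and 4.21, and A_09_P128175 at 3.46, 3.28, 4.18, 2.63 and 4.06. Taking the male signal as measured they were 5.63 and 6.07, which are no bounds. The slp1 ratio in control flies was -0.62 and -0.80 under the first 2 and 0.095 without scaling. These scalings shift the level of all probes between the sexes. For A_09_P128175 the deposited table held the intensities of its single spot, 15.6 in HN females and 249 in control females. Its -3.61 is therefore a bound, with the dim side at the lowest signal of a probe that passed. The deposited-table values of 1.84, 4.21 and 4.06 are bounds of the same kind. The offset in normexp shrinks ratios of dim probes, but its part in the moves was not tested. For quantile normalization the cause was not tested.

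Probes lower in HN females numbered 709, but 268 under normexp, 1655 with no filter on dim probes, 352 when well above background on both arrays and 423 at 2-fold. Those lower in HN males numbered 573, but 314 without scaling, 379 under normexp, 1350 with no filter and 284 at 2-fold. Higher probes made up 65.1% of changed probes in males, 92.4% without scaling, 54.9% under normexp and 53.3% with the deposited table. Probes higher in females than males numbered 8081, 7300 and 9312 in HN flies under the first 3 settings above and 8045 and 7237 in control flies under the first 2.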

Other observations

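Other probes were also found on female arrays alone. Well above background on at least 1 female array and on neither male array were 1050 probes. Of these, 220 (21.0%) were lower and 183 (17.4%) higher in HN females beyond 1.5-fold. Over all 22546 probes compared in females the shares were 3.14% and 3.83%. A probe could enter the set through 1 female array alone, so nothing is read from these shares. Probes of the set that reached at least the signal of the dimmer Ilp4 probe, 355, on either female array numbered 123. Of these 123 probes 23 (18.7%) were lower in HN females beyond 1.5-fold and 1 (0.81%) was higher. In all 12, the Ilp4 probes among them, were lower by at least as much as the less changed Ilp4 probe. The median log2 ratio of the 123 probes was -0.10. Besides the 2 Ilp4 probes, the 12 hold 10 probes of 8 transcripts, none with a gene symbol in the tables used here. The limits on signal and on change were both taken from the Ilp4 probes after the data were seen, so these counts are a description.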
